A study of Caenorhabditis elegans with 2 samples.

Results

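The 44 genes described here are oocyte and germ granule genes of Caenorhabditis elegans, out of 19973 protein-coding genes on the nuclear chromosomes. They were given by name from what their products do, with earlier results of these data known. All 44 symbols were found in the annotation. By role, 10 encode eggshell and oocyte surface proteins, 23 encode maternal RNA-binding proteins and 11 encode germ granule proteins. A further list of 42 germline genes with the same roles, which shares no gene with the 44, was read beside them. The study mapped where the fusion protein RCOR-1::eGFP sits on chromatin, by ChIP-seq with an antibody against GFP in whole young adult worms. The series holds 1 group of 2 biological replicates, both of strain RW12222, in which CRISPR insertion placed the TY1, EGFP and 3xFLAG tags at rcor-1 on chromosome I (allele st12222). The worms were 65 hours old, had been bleached and synchronised as starved L1 larvae, and their sex is given as not collected. All worms came from this 1 tagged line, and a control experiment named in the labels was not analysed here.

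RCOR-1 belongs to the CoREST family of corepressors, which in animals bring histone deacetylases and the LSD1-type demethylase together on chromatin. Oocytes of the worm are loaded with maternal messenger RNAs, and RNA-binding proteins hold back or release their translation until after fertilisation. Germ granules, called P granules in the worm, are condensates of RNA and protein on germline nuclei and in the early germ lineage, and the eggshell is built by the fertilised egg from products the oocyte has stored.

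The sequences at the centre of 7 member peaks were read first, because peaks are all that the files report on these genes. For each role they are up to 3 of the strongest members with a peak, leaving out 1 chromosome whose sequence is not printed here, so that the germ granule role has only pgl-3. The peak of chs-1, the strongest of all members, is therefore not among them, while that of egg-3, the weakest, is. Each stretch holds 121 bases with the deposited summit at position 61, read on the strand of the gene from the RefSeq WBcel235 sequence, which is the ce11 assembly of the files. Capitals mark GCGCGA or GCGGGAAA on the strand shown, letter runs chosen after these stretches were seen. The stretches lie at chrIII:5727945-5728065 for egg-1 (plus strand), chrIV:5469895-5470015 for rme-2 (plus), chrII:10884505-10884625 for egg-3 (minus), chrII:11968384-11968504 for mex-1 (plus), chrV:8413744-8413864 for pos-1 (plus), chrIV:6421317-6421437 for puf-11 (plus) and chrV:4755477-4755597 for pgl-3 (plus).
egg-1: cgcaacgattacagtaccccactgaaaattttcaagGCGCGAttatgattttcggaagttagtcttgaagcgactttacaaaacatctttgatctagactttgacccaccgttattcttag
rme-2: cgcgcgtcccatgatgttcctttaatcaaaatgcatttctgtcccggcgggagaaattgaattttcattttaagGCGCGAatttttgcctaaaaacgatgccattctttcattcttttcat
egg-3: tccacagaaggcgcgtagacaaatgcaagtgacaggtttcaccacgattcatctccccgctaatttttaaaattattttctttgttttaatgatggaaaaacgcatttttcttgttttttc
mex-1: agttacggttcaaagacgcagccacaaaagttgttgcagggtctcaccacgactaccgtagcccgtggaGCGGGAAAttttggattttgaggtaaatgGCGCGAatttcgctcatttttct
pos-1: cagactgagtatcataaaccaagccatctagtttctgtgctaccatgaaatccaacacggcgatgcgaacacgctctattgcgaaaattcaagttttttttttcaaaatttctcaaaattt
puf-11: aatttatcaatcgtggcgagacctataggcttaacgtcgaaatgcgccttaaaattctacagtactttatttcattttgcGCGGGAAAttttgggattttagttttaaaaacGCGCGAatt
pgl-3: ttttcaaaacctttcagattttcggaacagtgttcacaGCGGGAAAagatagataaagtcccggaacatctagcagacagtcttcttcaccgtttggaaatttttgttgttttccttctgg
All 7 stretches are intergenic in the annotation, and 5 of the 7 hold at least 1 of the marked runs, those of egg-3 and pos-1 holding neither.

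The peak list made between both replicates, which the authors named conservative, held 2324 nuclear peaks. Each replicate also had its own list, with 1530 nuclear peaks for replicate 1 and 1457 for replicate 2. A longer ranked list of 45081 nuclear regions, called candidate regions here, holds the weaker regions too. The ranked lists give an irreproducible discovery rate (IDR), read like a q-value, and regions in the conservative list had an IDR of 0.01 or less. Peak strength is given by the authors' deposited signal, whose unit the file notes leave undefined. Signals rank regions within a list and were not compared between lists, since the list made between replicates and the lists of single replicates have different scales. The median signal of the conservative nuclear peaks was 90.2 and that of the candidate regions 25.7. Read depth is unknown.

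RCOR-1::eGFP peaks lay at the 5' ends of 21 of the 44 oocyte and germ granule genes (47.7%). A gene was counted when the summit of a conservative peak fell within 500 bp of one of its annotated transcript starts. The same rule counted 1408 of 19973 protein-coding genes (7.05%). The members, like the further list below, were chosen with earlier results of these data known, so these shares carry no test. Among the roles, the eggshell and oocyte surface genes had a peak at 5 of 10, the maternal RNA-binding genes at 12 of 23 (52.2%) and the germ granule genes at 4 of 11 (36.4%). The differences between the roles rest on few genes and were not tested. In the further list of germline genes 11 of 42 (26.2%) had a peak. Without replicate 1 the count was 7 of 42, against 4.73% of all protein-coding genes. Without replicate 2 it was 6 of 42, against 5.00%. Candidate regions lay at 37 of the 44 members (84.1%) and at 36 of the 42 further germline genes (85.7%), against 44.8% of all protein-coding genes. Of the 8951 protein-coding genes with a candidate region, 15.7% had a peak. Whole worms were used, so sites in germ cells and sites in somatic cells cannot be told apart in any of these values.

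**Figure D1:**
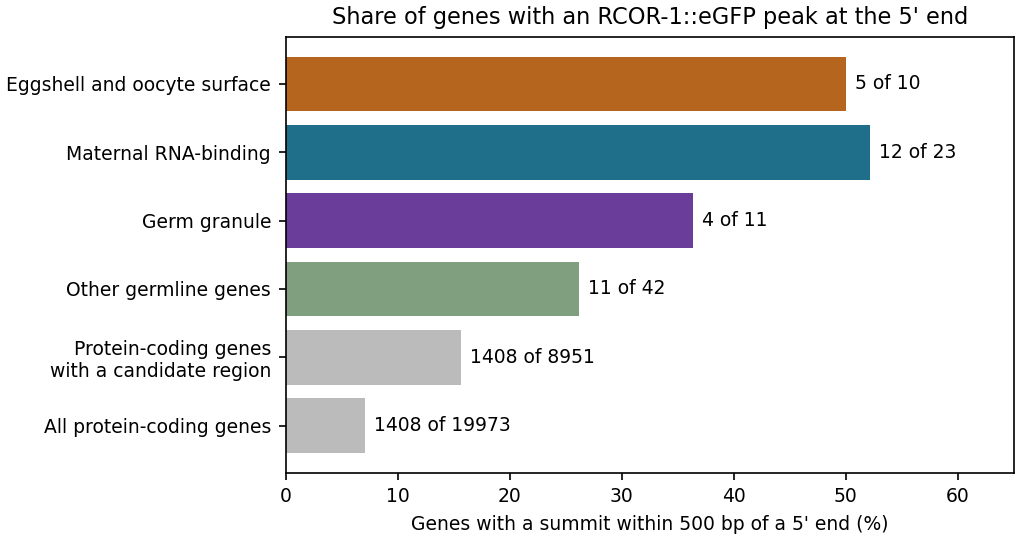
Share of genes with a summit of the conservative list within 500 bp of an annotated 5' end, in percent, for the 3 roles of the oocyte and germ granule genes, the further germline genes and the background sets; each bar is a count of genes from 1 list, with the count printed beside it. The lowest bar of the 3 roles is that of the germ granule genes at 36.4%, and that of all protein-coding genes stands at 7.05%.

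Of the eggshell and oocyte surface genes, chs-1, egg-1, rme-2, egg-4 and egg-3 had a peak. The strongest was at chs-1, which encodes the chitin synthase that makes the chitin of the eggshell. Its peak on chromosome I (7554742 to 7554868, ce11; intergenic, summit at -69 bp from the 5' end, negative being upstream) had a signal of 215 in the list made between replicates, 94.1 in replicate 1 and 116 in replicate 2. This was the highest signal of all 44 members. The gene egg-1 encodes an oocyte membrane protein with LDL-receptor repeats that is needed for sperm to enter. Its peak on chromosome III (5727865 to 5728144; summit at -175 bp) had a signal of 148, with 62.0 in replicate 1 and 93.4 in replicate 2. The yolk receptor gene rme-2 had a peak on chromosome IV (5469815 to 5470094; summit at -71 bp) with a signal of 137, and 51.9 in replicate 1 and 81.3 in replicate 2. These 3 genes had peaks in the own lists of both replicates and each had an IDR of 2e-05 or less.

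The genes egg-3, egg-4 and egg-5 encode pseudophosphatases that act at the passage from oocyte to embryo. At egg-4 the peak on chromosome I (3931775 to 3932054; summit at -295 bp) had a signal of 116, with 41.8 in replicate 1 and 72.2 in replicate 2. Both own lists held it. At egg-3 the peak on chromosome II (10884425 to 10884704; summit at -124 bp) had a signal of 63.1, the lowest of the 21 members with a peak, with 26.0 in replicate 1 and 32.8 in replicate 2. Its IDR of 0.0086 was close to the threshold, and neither replicate's own list nor the other list of the series held it. Of the eggshell members without a peak, cbd-1, which encodes a chitin-binding protein of the eggshell's outer layer, had a candidate region at -187 bp with a signal of 64.7, above the signal at egg-3. Its replicates differed, with a signal of 38.0 and a place in the own list for replicate 1, and a signal of 24.2 and no such place for replicate 2, and the IDR between them was 0.068. The strongest candidate regions of egg-2 and egg-5 lay inside coding exons, at +405 and +438 bp, with signals of 43.4 and 31.9. No candidate region of the list made between replicates lay within 500 bp of perm-2 or perm-4, a divergent pair of eggshell genes.

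Among the maternal RNA-binding genes, 6 of the 7 members for proteins with CCCH zinc fingers had a peak. This grouping by protein family was made after the values were seen, and the CCCH genes of the further germline list, ccch-1, ccch-2, ccch-5, dct-13 and moe-3, had none. The proteins of the 7 members bind maternal messenger RNAs and set the early axis and germ lineage of the embryo. The strongest peak was that of mex-1 on chromosome II (11968395 to 11968516; summit at -193 bp), with a signal of 212, and 92.8 in replicate 1 and 121 in replicate 2. At pos-1 the peak on chromosome V (8413784 to 8413885; summit at -282 bp) had a signal of 201, with 86.3 in replicate 1 and 112 in replicate 2. Both were in the own lists of both replicates. The pos-1 summit was also at -322 bp from vha-18, a gene on the other strand for a subunit of the vacuolar proton pump.

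The genes oma-1 and oma-2 encode a pair of proteins needed for oocytes to mature. At oma-1 the peak on chromosome IV (8888576 to 8888855; summit at -260 bp) had a signal of 108, with 27.7 in replicate 1 and 76.1 in replicate 2. The own list of replicate 2 alone held it. At oma-2 the peak on chromosome V (8028878 to 8029157; summit at -421 bp) had a signal of 88.6, with 48.1 in replicate 1 and 37.7 in replicate 2. Both own lists held it. The genes mex-5 and mex-6 encode a pair that acts early in the polarity of the embryo. At mex-6 the peak on chromosome II (9523610 to 9523889; summit at -424 bp) had a signal of 91.3, with 31.3 in replicate 1 and 58.7 in replicate 2. The own list of replicate 2 alone held it. At mex-5 the peak on chromosome IV (13353275 to 13353554; summit at -308 bp) had a signal of 70.7, with 42.3 in replicate 1 and 29.2 in replicate 2. The own list of replicate 1 alone held it. That summit lay closer to rec-8, a meiotic cohesin gene on the other strand, at -222 bp. The CCCH gene without a peak was pie-1, whose product keeps transcription off in the germ lineage of the embryo. Its strongest candidate region lay in a coding exon at +263 bp, with a signal of 39.1.

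PUF proteins bind the untranslated regions of messenger RNAs, and 2 of the 6 PUF genes among the members had a peak. Of the puf genes in the further germline list, puf-7 had a peak and puf-6 and puf-12 had none. At puf-11 the peak on chromosome IV (6421375 to 6421444; summit at -208 bp) had a signal of 144, with 52.4 in replicate 1 and 98.2 in replicate 2. At puf-3 the peak on the same chromosome (13512227 to 13512506; summit at -205 bp) had a signal of 114, with 44.6 in replicate 1 and 71.5 in replicate 2. Both peaks were in the own lists of both replicates, and the puf-3 summit lay in an intron of afmd-2. The other 4 PUF genes among the members had candidate regions below the threshold. That of puf-5 was nearest to it of all members without a peak, at -134 bp with a signal of 61.0 and an IDR of 0.018, with 24.5 in replicate 1 and 29.3 in replicate 2. That of fbf-2, at -34 bp, had a signal of 43.0 and an IDR of 0.047, with 20.8 in replicate 1 and 27.2 in replicate 2. The candidate regions of fbf-1 and puf-8 lay inside coding exons, with signals of 19.3 and 17.1 and an IDR of 0.84 for both.

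Among genes of the Nanos family, whose products act with PUF proteins, nos-3 had a peak. It lay on chromosome II (9746135 to 9746414; summit at -41 bp) with a signal of 100, and 50.2 in replicate 1 and 49.9 in replicate 2. Its summit was also at -197 bp from Y53C12B.1. The strongest candidate region of nos-1 had a signal of 25.5 and nos-2 had none. At spn-4, whose product has an RNA recognition motif, the peak on chromosome V (6784958 to 6785237; summit at -195 bp) had a signal of 87.4, with 30.8 in replicate 1 and 44.5 in replicate 2. Neither replicate's own list held it, and its summit was also at -353 bp from the sperm gene spe-39. At daz-1, the worm gene of the DAZ family, the peak on chromosome II (5455948 to 5456227; summit at -217 bp) had a signal of 84.8, with 35.9 in replicate 1 and 41.3 in replicate 2. The own list of replicate 2 alone held it. The gene mex-3 encodes a KH-domain protein, and its stronger peak on chromosome I (128213 to 128492) had a signal of 85.1, with 43.4 in replicate 1 and 43.7 in replicate 2. The own list of replicate 1 alone held this peak. Its summit lay in an intron of mex-3, at -344 bp from a start inside the gene. A second conservative peak lay within the window of mex-3, at -131 bp. With the 5' end of the gene record alone, mex-3 was not counted.

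The 3 gld genes, which share a germline phenotype and not a protein family, had no peak. The strongest candidate region of gld-2, which encodes a cytoplasmic poly(A) polymerase, lay at -60 bp in the 5' UTR with a signal of 47.5, with 26.1 in replicate 1 and 25.1 in replicate 2. Its IDR of 0.045 was the second lowest of the members without a peak. The gene gld-1, for a STAR-family repressor of translation, had a signal of 42.2 at -330 bp, and gld-3, for a Bicaudal-C-like protein, had a signal of 40.5 at -343 bp. The TRIM-NHL gene lin-41 had no candidate region in the list made between replicates.

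Of the germ granule genes, glh-2, glh-1, pgl-3 and glh-4 had a peak. The GLH proteins are Vasa-like RNA helicases of the P granules, and 3 of their 4 genes had a peak. At glh-2 the peak on chromosome I (6513789 to 6514068) had a signal of 128, with 48.8 in replicate 1 and 74.7 in replicate 2, and its summit lay at +1 bp in the 5' UTR. That summit was also at -99 bp from C55B7.11 on the other strand. At glh-1 the peak on chromosome I (6854293 to 6854572; summit at -45 bp) had a signal of 91.4, with 27.4 in replicate 1 and 63.0 in replicate 2. The own list of replicate 2 alone held it. At glh-4 the peak on chromosome I (3726644 to 3726923; summit at -243 bp) had a signal of 63.9, with 28.6 in replicate 1 and 36.2 in replicate 2, and neither own list held it. The fourth gene, glh-3, had no candidate region in the list made between replicates.

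PGL proteins form the scaffold of the P granules. At pgl-3 the stronger of 2 peaks in the window lay on chromosome V (4755397 to 4755676; summit at -442 bp) with a signal of 66.8, and 37.8 in replicate 1 and 39.1 in replicate 2. It was in the own list of replicate 1 alone, and the other list of the series did not hold it. The replicate 2 region that overlaps it had its own summit outside the 500 bp window. The strongest candidate region of pgl-1, at -444 bp, lay in an intron of him-3 with a signal of 31.1. Of the further granule members, car-1 for an Sm-like protein, deps-1 for a P granule protein and cgh-1 for a DDX6-like helicase had candidate regions with signals of 49.6, 43.5 and 41.8. The genes meg-1 and meg-3, for disordered proteins of the embryonic P granules and the only members on the X chromosome, had none. The germ granule genes with a peak were thus 3 helicase genes and 1 scaffold gene. Their number depended on the list, as 2 of 11 had a peak without replicate 1, 2 of 11 without replicate 2 and 1 of 11 at an IDR of 0.001 or less. The share of all protein-coding genes fell too, from 7.05% to 4.73%, 5.00% and 4.68% in the same order.

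**Figure D2:**
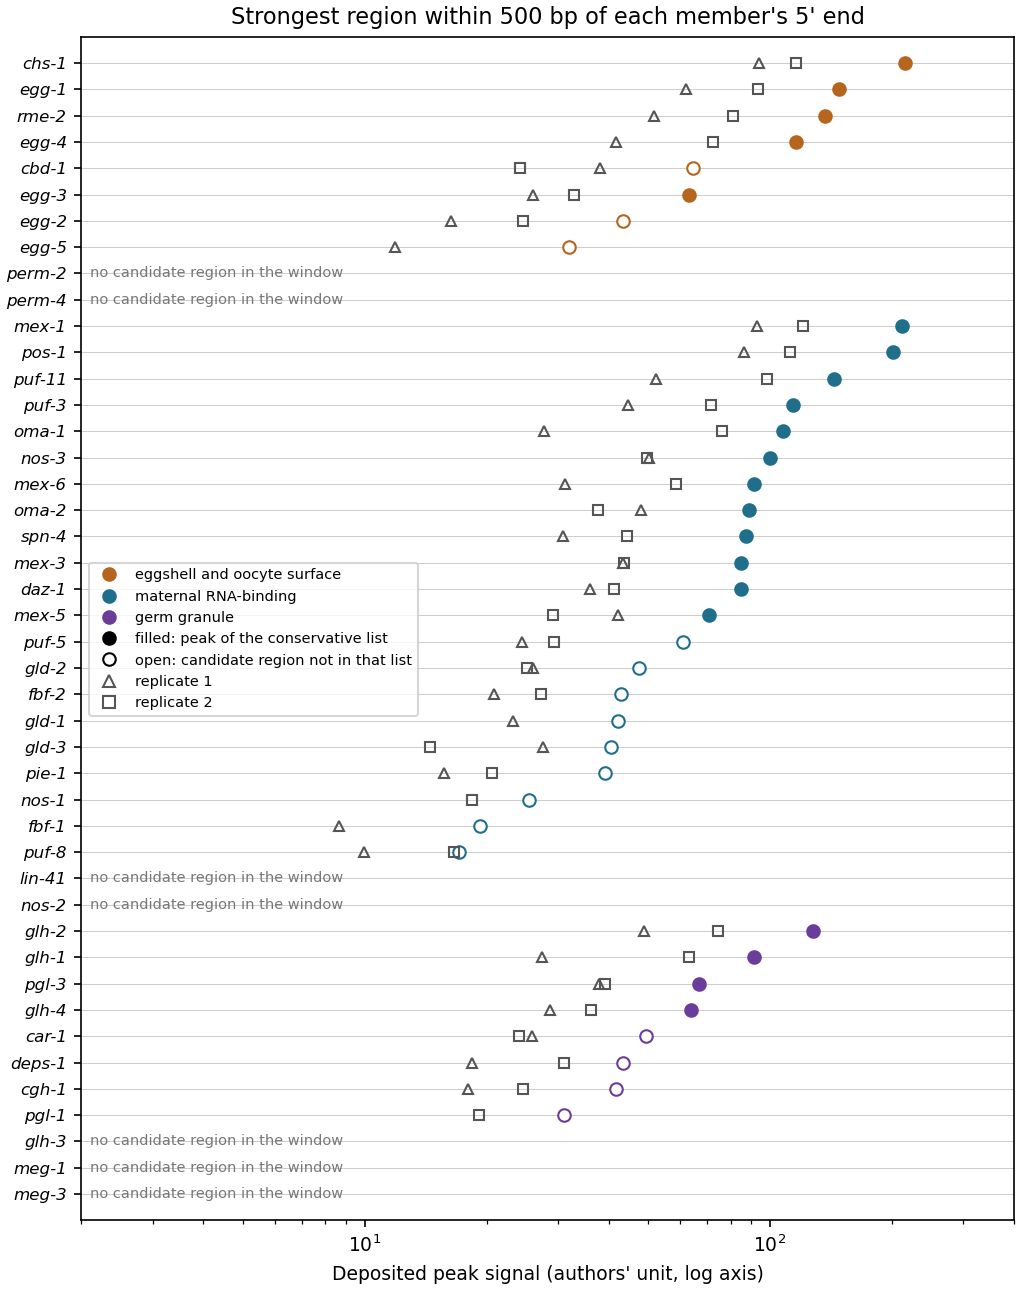
Deposited signal, on a log axis in the authors' unit, of the strongest region within 500 bp of the 5' end of each of the 44 members, coloured by role; filled circles are conservative peaks, open circles candidate regions outside that list, triangles replicate 1 and squares replicate 2, each from its own ranked list, so that only like symbols share a scale. Replicate values are those of regions overlapping the plotted one, whose own summits can lie outside the window, as at pgl-3 in replicate 2. The filled circles run from 63.1 at egg-3 to 215 at chs-1, and the open ones from 17.1 at puf-8 to 64.7 at cbd-1.

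Over all members, the 21 peaks had a median signal of 100, against 98.3 for the 1408 protein-coding genes with a peak. Of the 21, 13 were above the median of the conservative list and 7 above its upper quartile of 126. Of the 1408 protein-coding genes with a peak, 804 had one above that median. The 16 members with a candidate region alone had signals of 17.1 to 64.7 with a median of 42.0, and in 6 of the 16 the strongest region was in a coding exon. Each strongest signal was also ranked as a percentile among the nuclear candidate regions of its list, with genes without a region set to 0. The median over the 44 members was 94.9 in the list made between replicates, 92.7 in replicate 1 and 85.0 in replicate 2. The median over all protein-coding genes was 0, since most have no candidate region. By this measure 22 of the 44 members were in the top 5% of regions, against 1402 of all protein-coding genes (7.02%). The conservative list holds 2324 of the 45081 regions, so this count is not independent of the count of peaks. In the list of replicate 1 alone 16 members (36.4%) were in the top 5%, against 5.97% of all protein-coding genes, and in that of replicate 2 alone 14 (31.8%), against 5.17%.

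Related gene copies were then set side by side, with each pair's values from the list made between replicates. Both copies had a peak in the pairs puf-11 and puf-3, with signals of 144 and 114, oma-1 and oma-2, with 108 and 88.6, mex-6 and mex-5, with 91.3 and 70.7, and glh-2 and glh-1, with 128 and 91.4. In 3 pairs 1 copy alone had a peak. The gene egg-1 had a signal of 148 and egg-2 one of 43.4, egg-4 had 116 and egg-5 had 31.9, and pgl-3 had 66.8 and pgl-1 had 31.1. In each of these 3 pairs the summit of the copy with a peak was upstream. In that list the copy without one had its strongest region in its own coding exon at egg-2 and egg-5, and in an intron of the neighbour him-3 at pgl-1. Single replicates differed in part. The strongest summit of replicate 1 was at -148 bp for egg-5 (29.3) and at +363 bp for pgl-1 (25.7). That of replicate 2 was at -49 bp for pgl-1 (15.2). Beyond the 500 bp window, egg-5 also had a conservative peak at -640 bp with a signal of 263, described below. The pair fbf-2 and fbf-1 had signals of 43.0 and 19.3 and no peak at either copy. Whether reads at these copies map to 1 place was not tested.

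**Figure D3:**
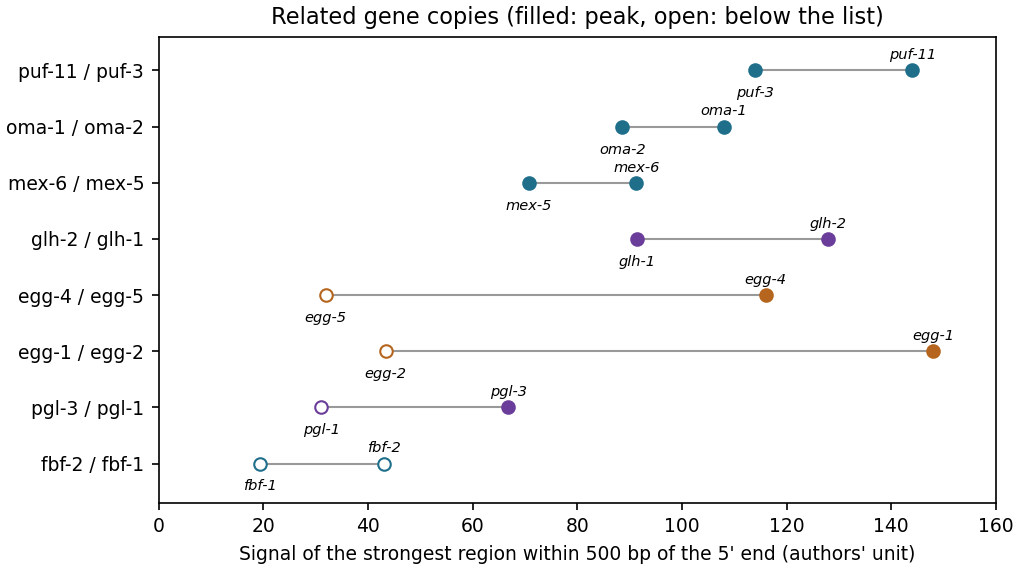
Signal of the strongest region within 500 bp of the 5' end, in the authors' unit, for both copies of 8 pairs of related members; filled circles are conservative peaks, open circles candidate regions outside that list, and a line joins the copies of a pair. In 4 pairs both circles are filled, in 3 pairs 1 is filled, and at fbf-2 and fbf-1 both are open.

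Peaks at the members lay upstream, as did most peaks of all protein-coding genes. Summits of 20 of the 21 members (95.2%) were upstream of the 5' end, at a median of -208 bp and between -442 and +1 bp. All 1408 protein-coding genes with a peak had a median position of -181 bp, and 87.5% of them had the summit upstream. The median position was -124 bp for the 5 eggshell and oocyte surface genes, -238 bp for the 12 maternal RNA-binding genes and -144 bp for the 4 germ granule genes. Annotated 5' ends of worm genes are often trans-splice sites, which lie downstream of where transcription starts, so these distances are not distances to a transcription start. With a window of 200 bp, 10 of the 44 members had a peak, against 3.55% of all protein-coding genes. The counts by role were then 4 of 10 eggshell and oocyte surface genes, 4 of 23 maternal RNA-binding genes and 2 of 11 germ granule genes.

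**Figure D4:**
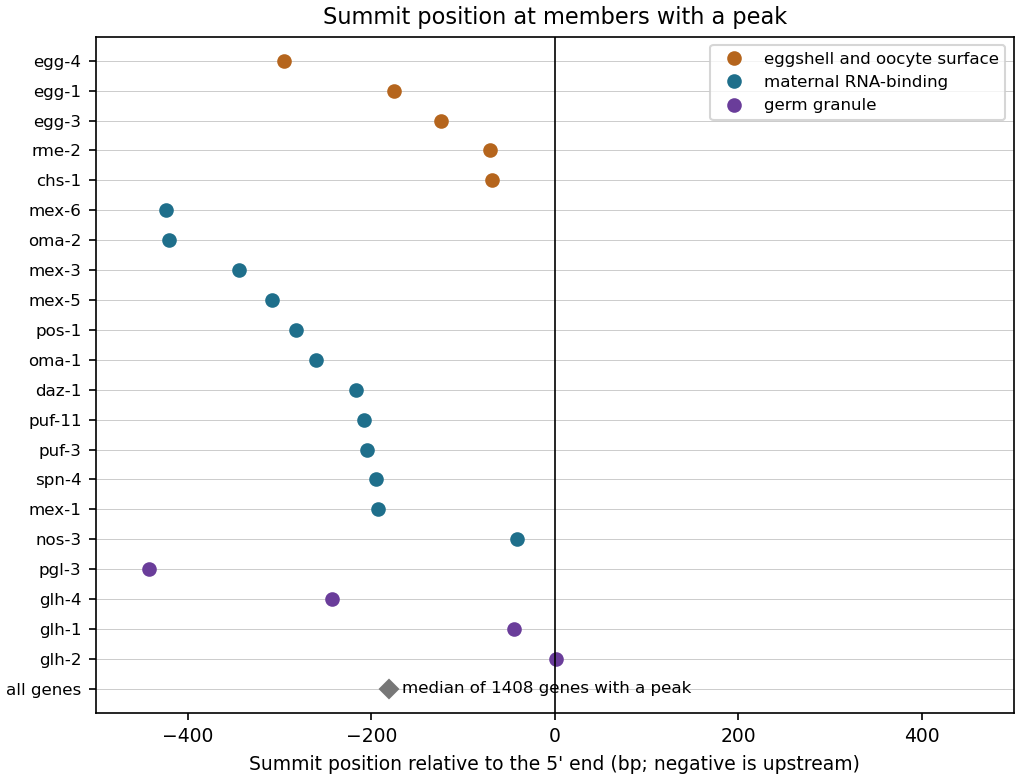
Position of the summit of the strongest conservative peak relative to the nearest annotated 5' end of each of the 21 members with a peak, in bp with negative values upstream, coloured by role; the diamond is the median of all 1408 protein-coding genes with a peak. Every member's point is upstream of 0 except that of glh-2 at +1 bp, and pgl-3 at -442 bp is the farthest.

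A window from 1000 bp upstream to 100 bp downstream counted 24 of the 44 members, against 8.36% of all protein-coding genes, and added 3. The peak it added for egg-5 on chromosome I (4172066 to 4172487; summit at -640 bp) had a signal of 263, with 128 in replicate 1 and 123 in replicate 2. This signal was above that of every member in the main count, but the summit lay inside sls-2.4, a gene for a spliced leader RNA. At cgh-1 the added peak on chromosome III (7498433 to 7498712; summit at -741 bp) had a signal of 126, with 69.2 in replicate 1 and 63.4 in replicate 2. At car-1 the added peak on chromosome I (12903546 to 12903825; summit at -784 bp) had a signal of 104, with 54.3 in replicate 1 and 51.7 in replicate 2. Its summit was closer to coa-5, at -237 bp.

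A peak that counted for another protein-coding gene too was found at 6 of the 21 members with a peak (28.6%), against 602 of all 1408 genes with a peak (42.8%). The 6 were mex-5, pos-1, puf-3, spn-4, nos-3 and glh-2. Of the 21 members, 5 (23.8%) had a divergent gene starting within 1000 bp upstream, against 45.6% of all 1408. Of the 9 members with such a divergent gene, 5 had a peak (55.6%), against 18.3% of all protein-coding genes in that position. Of the 12 members with a gene on the same strand ending within 500 bp upstream, 6 had a peak, against 6.59% of all protein-coding genes in that position. Of the 23 members with neither kind of neighbour, 10 had a peak (43.5%), against 4.11% of all protein-coding genes. The median gap to the upstream neighbour was 630 bp for the members and 1160 bp for all protein-coding genes. In 20 of the 21 the member was the gene with the nearest 5' end, mex-5 being the exception.

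The replicates were compared at the 21 members with a peak. The own list of replicate 1 overlapped 14 of these peaks and that of replicate 2 overlapped 15. Both lists overlapped 11 (52.4%), and neither overlapped 3 (14.3%), those of egg-3, spn-4 and glh-4. For the 1110 distinct strongest peaks of all protein-coding genes with a peak, the shares were 48.6% in both and 24.6% in neither. Every one of the 21 had a region in both ranked lists, at the 91.7th percentile or above in replicate 1 and at the 86.6th or above in replicate 2. Across these 21 genes the signals of the replicates had a Spearman's rho of 0.70, given as a description, since genes are not replicates and the IDR selects regions that rank alike. Counted from the own list of replicate 2 alone, 15 of the 44 members had a peak, against 4.73% of all protein-coding genes. Counted from the list of replicate 1 alone, 15 had a peak, against 5.00%, of which 14 were among the 21 and the other was cbd-1.

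By chromosome, members with a peak were 6 of 13 on I, 5 of 12 on II, 1 of 4 on III, 5 of 9 on IV, 4 of 4 on V and 0 of 2 on X. The shares of all protein-coding genes with a peak were 10.3%, 6.70%, 10.1%, 7.99%, 5.07% and 3.63% in the same order. The 4 members on V were pos-1, oma-2, spn-4 and pgl-3. On the autosomes alone, 21 of 42 members had a peak, against 7.59% of protein-coding genes.

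Other ways of counting moved the number of members with a peak as follows. The other list of the series gave 19 of 44, against 7.23% of all protein-coding genes, and left out egg-3 and pgl-3. Conservative peaks with an IDR of 0.001 or less gave 13, against 4.68%, and conservative peaks above the median signal gave 13, against 4.03%. Counting any overlap of the peak region with the window gave 22, against 7.78%, and added egg-5. With each summit given to the nearest protein-coding 5' end alone, 20 were counted, against 5.61%, and mex-5 was lost. Leaving out peaks at tRNA, snRNA or snoRNA genes kept all 21, against 6.49%. The 5' end of the gene record alone gave 20, against 6.64%, mex-3 being lost.

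Sequence around the member summits had a mean GC content below that of all peaks at protein-coding 5' ends. In windows of 251 bp centred on the summit, GC content was 35.7% ± 4.7 (SD, n = 21 peaks), with a range of 26.7 to 45.4%. It was 40.5% ± 7.05 at the 1185 conservative peaks of protein-coding 5' ends, which include those of the members, and 39.4% ± 6.59 at the 11952 candidate regions there that missed the threshold. In windows of 101 bp the values were 40.3% for the members, 46.9% for the peaks and 40.7% for the candidate regions. The run GAGAGA, searched on both strands like all others, was in the windows of 251 bp at 2 of 21 members (9.52%), against 29.1% of the peaks and 18.9% of the candidate regions. In the windows of 101 bp it was at 2 of 21 again, against 16.4% of the peaks and 9.20% of the candidate regions, so that the members then stood below the peaks alone. GGGCGG and CTCCGCC, both GC-box runs, were at none of the 21, against 142 and 65 of the 1185 peaks. The E-box run CANNTG was at 9 of 21 (42.9%), against 59.7% of the peaks and 64.5% of the candidate regions, and in the windows of 101 bp at 6 (28.6%), against 38.1% and 36.1%.

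The E2F-like run GCGCGAAA was in the windows of 4 of 21 members (19.0%), against 5.99% of the peaks and 1.40% of the candidate regions. These 4 were chs-1, egg-4, spn-4 and glh-4. The shorter run GCGCGA, which GCGCGAAA contains, was at 9 of 21 (42.9%), against 16.6% of the peaks and 5.44% of the candidate regions. The related run GCGGGAAA was at 6 of 21 (28.6%), against 4.05% of the peaks and 1.54% of the candidate regions. Either of these runs was at 11 of 21 members (52.4%), against 19.7% of the peaks and 6.86% of the candidate regions, and in the windows of 101 bp at 10 (47.6%), against 12.7% and 3.25%. The run GGCGCG was at 9 of 21 (42.9%), against 19.6% of the peaks and 5.56% of the candidate regions. GCGCGA, GCGGGAAA and GGCGCG were all chosen after the members' stretches were seen. Their shares at the members are thus a description and carry no test. The stretches printed for mex-1 and puf-11 hold both GCGCGA and GCGGGAAA, those of egg-1 and rme-2 hold GCGCGA and that of pgl-3 holds GCGGGAAA. The other E2F-like run, GCGCCAAA, was at 0 of 21 members, against 1.77% of the peaks. TTTGAA was at 11 of 21 (52.4%) against 48.4%, TTTTTTT at 10 (47.6%) against 39.2%, TATAAA at 7 (33.3%) against 20.2%, CTGCGTCT at 1 (4.76%) against 10.8% and TGACGTCA at 0 against 1.10% of the peaks. For the first 3 of these runs the direction turned in the windows of 101 bp, with TTTGAA at 3 of 21 (14.3%) against 21.0%, TTTTTTT at 1 (4.76%) against 8.10% and TATAAA at 0 against 4.89% of the peaks. A match is a run of letters and not a binding site.

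Among the further germline genes the strongest peaks were at cpg-1, atx-2, cpg-2 and cey-2. The genes cpg-1 and cpg-2 encode chondroitin proteoglycans of the eggshell. At cpg-1 the summit was at -234 bp, with a signal of 380, and 161 in replicate 1 and 217 in replicate 2, above every one of the 44 members. At cpg-2 the summit was at -261 bp, with a signal of 202, and 82.9 in replicate 1 and 118 in replicate 2. The ataxin-2 gene atx-2 had a signal of 204, with 80.3 in replicate 1 and 121 in replicate 2, and the cold-shock domain gene cey-2 had 131, with 58.4 and 66.1. The other 7 with a peak, with signals of 61.1 to 117, were trcs-1, znfx-1, rme-1, ife-3, puf-7, ekl-1 and mbk-2.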

How the data were processed

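RCOR-1::eGFP was measured by ChIP-seq in 2 biological replicates of whole young adult worms, fragmented by sonication to 200 to 800 bp per the labels. The deposited peak lists are in ce11 per the deposited file notes. The sources used here do not give the aligner or peak caller. The peak lists carry no read totals, so depth is unknown and single peaks carry no counting error. The deposited signal and summit of each region, and the deposited −log10 of the IDR in the ranked lists, are the authors' values. The series holds 1 group, so no test between groups was made and no p-value is printed. In the series' ranked lists 4 signal columns that no header ties to a sample were not used. Region ends fit within every nuclear chromosome of WBcel235.

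Members and lists were chosen with earlier results of these data known. Symbols were matched to Ensembl release 115. A gene had a peak when a summit of the conservative list lay within 500 bp of any annotated transcript start. Replicate values are those of the strongest region of each replicate's own ranked list that overlaps the peak by at least 1 bp. Shares of members are read beside the same shares over all protein-coding genes. All members are named. Members with a peak and the 3 others of lowest IDR have full values, as have the 4 strongest further germline genes. The code for the assignment was checked on simulated data, where 200 of 200 peaks placed within 500 bp of a start were recovered over 19973 genes. This checks the rule as coded and not whether a peak belongs to the gene. Alternatives were other lists, thresholds, windows and ways of assigning summits to genes. Python 3.11.15 and pandas 2.3.3 were used.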

Additional observations from a re-analysis of the deposited data

How the results depend on the processing

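Of the 44 members, 13 had a peak at an IDR of 0.001 or less, 13 when peaks had to exceed the median signal and 10 with a window of 200 bp, against 21 in the main count. All protein-coding genes with a peak numbered 934, 804 and 709 under the same settings, against 1408. Without replicate 1 they numbered 945 and without replicate 2 they numbered 998. Maternal RNA-binding genes numbered 7 above the median signal and 4 in the 200 bp window, against 12. Germ granule genes numbered 2 without replicate 1, 2 without replicate 2, 1 at the stricter IDR, 2 above the median signal and 2 with the 200 bp window, against 4. Further germline genes numbered 6 to 7 when either replicate was left out, 6 above the median signal and 4 with the 200 bp window, against 11. The median percentile of the members ranged from 85.0 to 92.7 in single replicates, against 94.9. GC content at the summits was 40.3% within 50 bp either side, against 35.7% in the wider window. The count of eggshell and oocyte surface genes stayed between 4 and 6 of 10 in all 11 alternatives. The other list of the series gave 19 members and the nearest 5' end alone gave 20. No paired analysis was possible because the series holds 1 group and no result comes from a test. Without read counts the precision of a single signal cannot be given, and genes near the threshold, such as egg-3 and puf-5, are told apart by the deposited IDR alone.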
